A study of Mus musculus with 8 samples.

Results

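Activity-linked protein kinase genes of the Plk, Sik, Sgk, Pim and Msk families were followed in cultured mouse neurons during treatment with bicuculline. The members were picked by gene symbol for what they are known to do, by a rule that used no measured value, although earlier results of these data were known when they were picked. They are Plk2, Plk3, Sik1, Sik2, Sik3, Sgk1, Pim1, Pim3, Rps6ka4 and Rps6ka5. Of these 10 genes, 9 had a transcript cluster (the array's set of probes for one locus) in the annotation used, each with 1 cluster, among 19938 genes measured in all. The expression of Rps6ka4, which encodes MSK2, was not analysed here. The arrays held RNA of hippocampal neurons from ICR mice, an outbred strain, taken from embryos at stage E17.5 and grown for 10 days. They were collected at 0, 30, 180 and 300 min of 50 µM bicuculline, which blocks GABA-A receptors and so removes fast inhibition between neurons. Each time had 2 biological replicates, each on its own Affymetrix Mouse Gene ST 1.0 array. No group of untreated cultures at the later times is named in the labels, so time in the dish and bicuculline cannot be told apart, and the cells are a mixed primary culture rather than a sorted cell type.

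These kinases are known from other work as a layer between calcium entry and longer-lasting changes in neurons. Plk2 and Plk3 are polo-like kinases, and Plk2 is a known activity-induced gene of hippocampal neurons whose product phosphorylates the spine protein SPAR (gene Sipa1l1) when synapses are scaled down. The salt-inducible kinases Sik1, Sik2 and Sik3 are switched on by LKB1 (gene Stk11) and hold CRTC coactivators and class IIa histone deacetylases in the cytoplasm, and Sik1 is itself a target of CREB. Sgk1 is a serum- and glucocorticoid-regulated kinase that acts below PDK1 and mTORC2 on channels, transporters and FOXO factors. Pim1 and Pim3 are kinases whose activity follows their expression level, and Msk1 (gene Rps6ka5) is a nuclear kinase that MAP kinases such as p38 activate and that phosphorylates CREB and histone H3.

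The promoters of 4 of these genes are shown because they are the polo-like pair and the genes of the responses described first below. The sequences are the 250 bases before an annotated start, from RefSeq on build GRCm38.p6, 5′ to 3′ on the strand of the gene, with matches to the motifs searched in capitals. The windows are chr13:110394794-110395043 (plus strand) for Plk2, chr4:117133964-117134213 (minus strand) for Plk3, chr10:21978422-21978671 (plus strand, 1 of 6 annotated starts) for Sgk1 and chr12:100725121-100725370 (minus strand) for Rps6ka5. The array does not tell which start of Sgk1 was used, and the window shown is the 1 of its 6 that held a match.
Plk2: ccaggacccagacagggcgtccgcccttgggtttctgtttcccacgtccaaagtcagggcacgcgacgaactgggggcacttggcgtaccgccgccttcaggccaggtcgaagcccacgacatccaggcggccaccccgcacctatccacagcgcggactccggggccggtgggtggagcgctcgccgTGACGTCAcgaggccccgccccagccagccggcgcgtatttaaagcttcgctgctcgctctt
Plk3: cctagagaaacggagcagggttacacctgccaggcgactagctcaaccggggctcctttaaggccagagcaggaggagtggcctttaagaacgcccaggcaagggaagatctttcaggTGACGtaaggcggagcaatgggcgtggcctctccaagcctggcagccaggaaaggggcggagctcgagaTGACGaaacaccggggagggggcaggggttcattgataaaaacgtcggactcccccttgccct
Sgk1: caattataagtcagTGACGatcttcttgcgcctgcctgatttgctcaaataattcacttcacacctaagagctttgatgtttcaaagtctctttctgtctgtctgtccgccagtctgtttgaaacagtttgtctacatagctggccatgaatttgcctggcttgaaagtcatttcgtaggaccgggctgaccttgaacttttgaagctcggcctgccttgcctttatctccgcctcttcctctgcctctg
Rps6ka5: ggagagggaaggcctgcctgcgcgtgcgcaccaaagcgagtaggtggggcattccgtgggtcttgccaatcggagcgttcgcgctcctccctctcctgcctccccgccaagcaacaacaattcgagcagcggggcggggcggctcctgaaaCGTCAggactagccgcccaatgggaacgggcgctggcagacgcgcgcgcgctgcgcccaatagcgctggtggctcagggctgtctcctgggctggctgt

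The capitals mark the cyclic AMP response element, the binding motif of CREB. The whole palindrome TGACGTCA stood 62 to 55 bases before the start of Plk2, and it was found in 1.55% of the 32851 promoter windows of all genes. Its core TGACG, on either strand and also counted inside the palindrome, was found in 17.8% of all windows and in 6 of the 15 windows of the set. It began 132 and 63 bases before the start of Plk3, 236 bases before the Sgk1 start shown and 99 bases before that of Rps6ka5, the last as CGTCA on the opposite strand. Sik3 held 3 copies and Rps6ka4 held 1. The AP-1 motif TGANTCA (6.75% of all windows) was found in the window of Rps6ka4, and the EGR motif GCGNGGGCG (4.7%) in those of Sik2 and Pim3. The CArG box of serum response factor (1.47%) and the MEF2 motif (2.92%) were found in 0 of the 15 windows. A match describes the letters in these windows and not occupancy.

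The signals are on a log2 scale, so that a difference of 1 is a doubling, and levels of different genes are not compared because each has its own probes. Array medians lay between 4.84 and 4.88, and replicate arrays correlated at r = 0.985 to 0.99 over the 35399 rows of the table. Olfactory receptor genes, which these cells are not known to use, served as a mark of background with a 95th percentile of 4.46. All 9 kinase genes lay above it on all 8 arrays. All 12 neuron markers did so on average, from Gad2 at 7.93 to Syt1 at 10.61. Markers of other cells were present as well, with 8 of 9 astrocyte, 7 of 9 oligodendrocyte lineage, 7 of 9 microglia, 4 of 8 endothelial and mural, 5 of 7 progenitor and 4 of 6 fibroblast markers above that percentile. They included Gfap of astrocytes at 6.25. Of the endothelial markers, Pecam1 at 4.08, Cdh5 at 4.12 and Tek at 3.86 lay below the percentile. Cldn5 at 5.08 and Kdr at 5.05 lay above it.

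**Figure D1:**
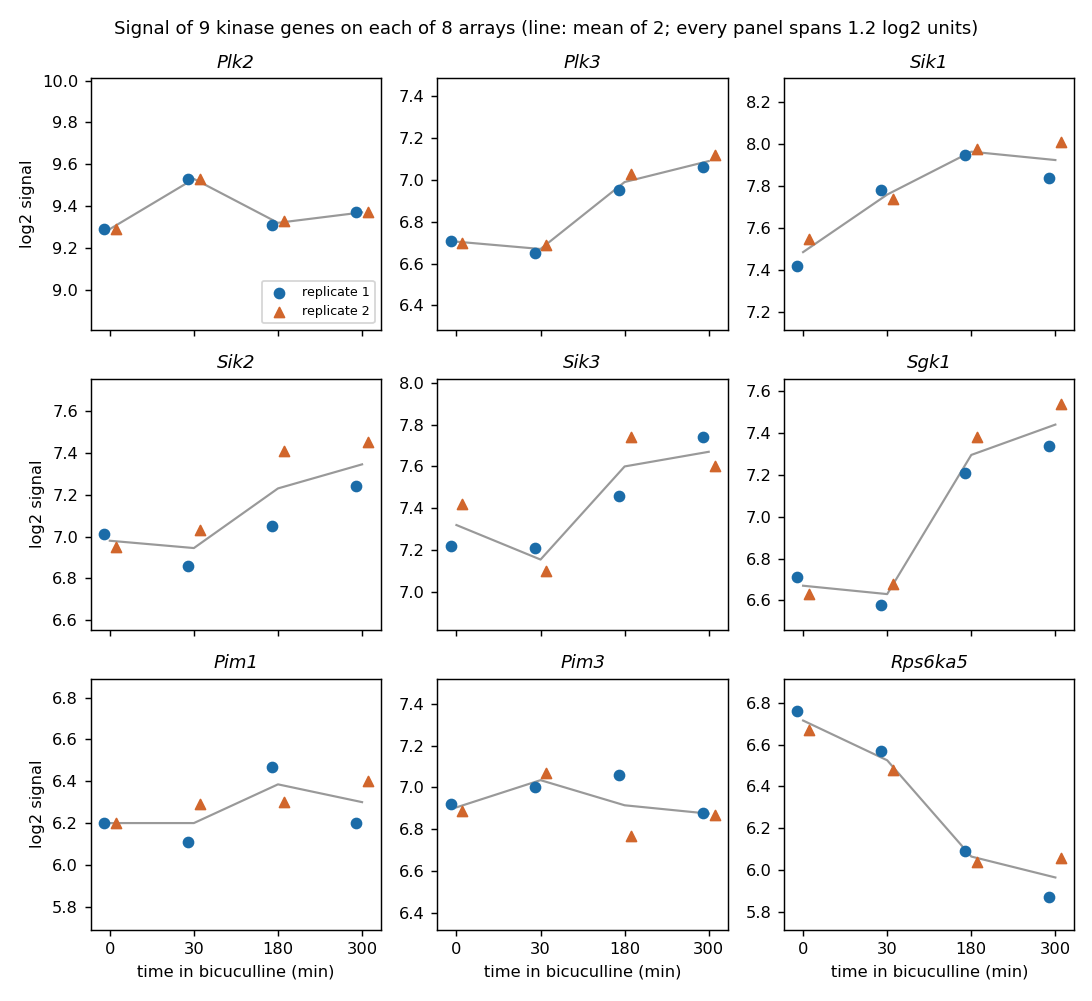
Log2 signal (vertical axis, 1.2 units in every panel) of the 9 kinase genes on each array at 0, 30, 180 and 300 min of bicuculline, with circles for replicate 1, triangles for replicate 2 and lines through the means. Sgk1 stands at 7.21 or above on the 4 arrays of 180 and 300 min and at 6.71 or below on those of 0 and 30 min, and Rps6ka5 runs the opposite way.

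Across the 4 times, Sgk1 and Rps6ka5 were the 2 of 9 kinase genes that differed (limma F test, adjusted p = 0.00539 and 0.0128), beside 0.813% of all genes. The count was 1 of 9 without 0 min replicate 1, without 30 min replicate 1 or without 300 min replicate 1. Sgk1 was higher late, and Rps6ka5 was lower late. Plk3, Sik1 and Sik3 had an adjusted p of 0.194 to 0.2 in this test, Sik2 of 0.418, and Plk2, Pim1 and Pim3 of 0.657 to 0.87. Adjusted p-values are over all 19938 genes, with a threshold of 0.05.

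Sgk1 rose 1.71-fold by 300 min. Its log2 signals were 6.71 and 6.63 at 0 min, 6.58 and 6.68 at 30 min, 7.21 and 7.38 at 180 min, and 7.34 and 7.54 at 300 min. The arrays of 0 and 30 min overlapped, those of 180 and 300 min overlapped, and a clear gap separated the early from the late arrays. The mean was 7.44 ± 0.14 at 300 min and 6.67 ± 0.06 at 0 min (SD, n = 2), a log2 change of 0.78 ± 0.13 SE (95% interval 0.51 to 1.05, limma adjusted p = 0.0162). This was rank 27 by p among all genes in that comparison, and 47 genes had an increase at least as large, Sgk1 included. At 180 min the change was already 0.63 ± 0.13 SE, but its adjusted p of 0.0537 missed the threshold. At 30 min it was −0.03 (95% interval −0.30 to 0.24). The step from 30 to 180 min was tested directly, and Sgk1 was 1.58-fold higher at 180 min than at 30 min (log2 change 0.66 ± 0.13 SE, limma adjusted p = 0.0334). From 180 to 300 min it changed by 0.15 (95% interval −0.12 to 0.42, adjusted p = 0.877).

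The call of Sgk1 at 300 min was lost without either 0 min array (adjusted p = 0.087 without replicate 1 and 0.115 without replicate 2) and without 300 min replicate 2 (0.122), while its log2 change stayed between 0.68 and 0.88 over the 8 fits that left out 1 array. The call of 180 against 30 min was lost without any one of the 4 arrays of those times, with adjusted p between 0.0677 and 0.383 and log2 changes between 0.58 and 0.74.

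Rps6ka5, the gene of the CREB and histone kinase MSK1, fell as Sgk1 rose. Its log2 signals were 6.76 and 6.67 at 0 min, 6.57 and 6.48 at 30 min, 6.09 and 6.04 at 180 min, and 5.87 and 6.06 at 300 min. Both 30 min arrays lay below both 0 min arrays, as in 18.3% of all genes. The 180 min arrays lay below those of 30 min, and those of 180 and 300 min overlapped. The mean was 5.96 ± 0.13 at 300 min and 6.72 ± 0.06 at 0 min (SD, n = 2), which is 1.69-fold lower at 300 min (log2 change −0.75 ± 0.12 SE, 95% interval −1.01 to −0.49, limma adjusted p = 0.016). It ranked 26 by p in that comparison, and 13 genes, Rps6ka5 among them, fell at least as far. At 180 min it was 1.57-fold lower than at 0 min (−0.65 ± 0.12 SE, limma adjusted p = 0.042). The difference at 30 min, −0.19 ± 0.12 SE, did not pass (adjusted p = 0.965), nor did that of 180 against 30 min, −0.46 ± 0.12 SE (adjusted p = 0.151). Since the comparisons of 180 and 300 min share the 0 min arrays, they are not independent of each other.

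The call of Rps6ka5 at 300 min was lost without 0 min replicate 1 (adjusted p = 0.145), 0 min replicate 2 (0.078) or 300 min replicate 1 (0.174), with log2 changes of −0.84 to −0.66 over the 8 fits. Its call at 180 min was lost without any one of the 8 arrays (adjusted p 0.0537 to 0.248, log2 change −0.70 to −0.61) and after quantile normalization (−0.60, adjusted p = 0.0595).

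**Figure D2:**
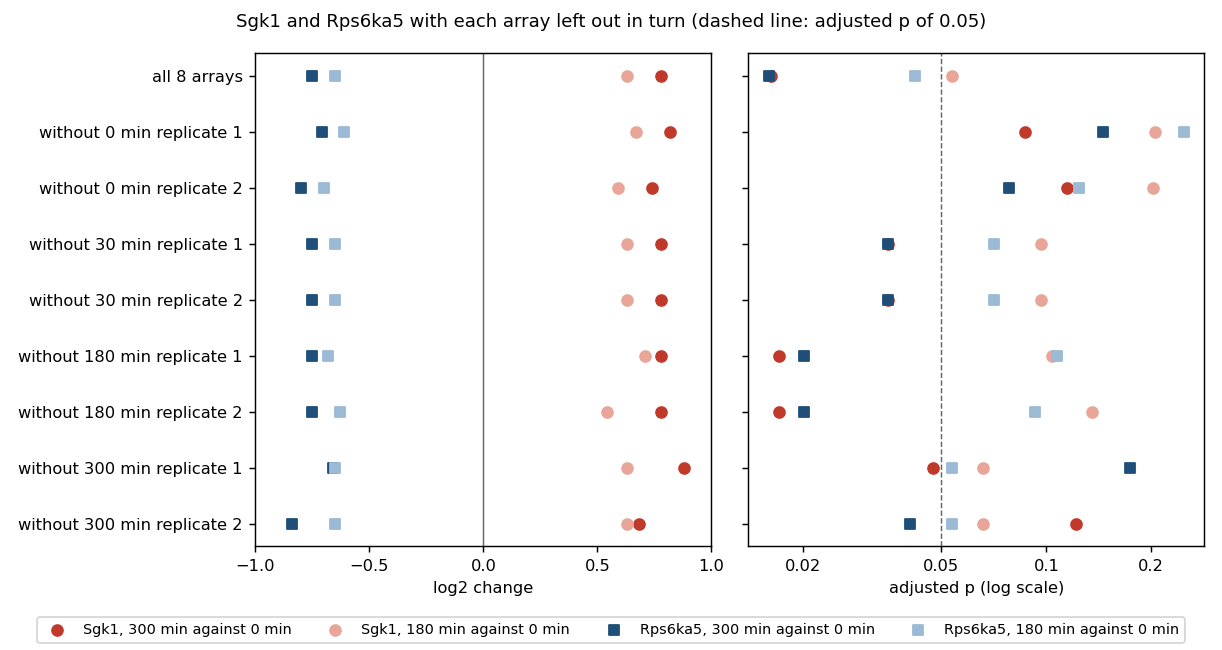
Log2 change against 0 min (left) and its limma adjusted p on a log axis (right) for Sgk1 and Rps6ka5 at 300 and 180 min, with all 8 arrays and with each array left out in turn. The changes stay between 0.54 and 0.88 for Sgk1 and between −0.84 and −0.61 for Rps6ka5, while several adjusted p-values cross the dashed line at 0.05.

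Sik1 had the next largest differences, but they did not pass. Its log2 signals were 7.42 and 7.55 at 0 min, 7.78 and 7.74 at 30 min, 7.95 and 7.98 at 180 min, and 7.84 and 8.01 at 300 min. Every array in bicuculline for 30 min or longer lay above both 0 min arrays. Taken time by time, 19.2% of all genes lay above in this way at 30 min, 21.1% at 180 min and 18.8% at 300 min. The log2 change was 0.27 ± 0.12 SE at 30 min (adjusted p = 0.957), 0.48 ± 0.12 SE at 180 min (adjusted p = 0.126) and 0.44 ± 0.12 SE at 300 min (adjusted p = 0.199), all from limma. At 180 min this was 1.39-fold, with a 95% interval of 0.22 to 0.73 for the gene taken alone.

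The other 2 salt-inducible kinases did not have both 30 min arrays above both 0 min arrays. Sik3 had both below, as did 18.3% of all genes. Sik2 gave 7.01 and 6.95 at 0 min, 6.86 and 7.03 at 30 min, 7.05 and 7.41 at 180 min, and 7.24 and 7.45 at 300 min. Sik3 gave 7.22 and 7.42 at 0 min, 7.21 and 7.10 at 30 min, 7.46 and 7.74 at 180 min, and 7.74 and 7.60 at 300 min. For both genes the late arrays lay above both 0 min arrays, with a wide spread between the 180 min replicates. Among all genes, 21.1% lay above at 180 min and 18.8% at 300 min. At 300 min the log2 change was 0.36 ± 0.14 SE for Sik2 and 0.35 ± 0.13 SE for Sik3 (limma adjusted p = 0.455 each), beside 0.44 for Sik1. At 30 min Sik2 stood at −0.03 and Sik3 at −0.17 (limma adjusted p = 0.993 and 0.975), and Sik1 did not pass there either. Differences between the 3 genes in their responses were not tested.

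Neither gene of the polo-like pair passed a test, and a difference between their time courses was not tested. Plk2 gave 9.29 and 9.29 at 0 min, 9.53 and 9.53 at 30 min, 9.31 and 9.33 at 180 min, and 9.37 and 9.37 at 300 min. Its highest arrays were therefore those of 30 min, and 19.2% of all genes had both 30 min arrays above both 0 min arrays. The log2 change at 30 min was 0.24 ± 0.11 SE, 1.18-fold, with a 95% interval of −0.01 to 0.48 (limma adjusted p = 0.957), and at 180 and 300 min it was 0.02 and 0.08. The upper bounds at those times, 0.27 and 0.32, lie well under a doubling on this array. The standard errors borrow from all genes, so they are wider than the near-identical Plk2 replicates alone would give.

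Plk3, which stress and growth signals are known to induce in other cells, gave 6.71 and 6.70 at 0 min, 6.65 and 6.69 at 30 min, 6.95 and 7.03 at 180 min, and 7.06 and 7.12 at 300 min. All 4 late arrays lay above all 4 early ones, and the share of all genes for this was not counted. Both arrays lay above both 0 min arrays in 21.1% of all genes at 180 min and 18.8% at 300 min. The log2 change was 0.28 ± 0.11 SE at 180 min (adjusted p = 0.318) and 0.38 ± 0.11 SE at 300 min, 1.3-fold (95% interval 0.14 to 0.63, limma adjusted p = 0.258).

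Neither Pim kinase passed a test, and by the change farthest from 0 over the 3 times they lay closest to their 0 min signals among the 9. Pim1 gave 6.20 and 6.20 at 0 min, 6.11 and 6.29 at 30 min, 6.47 and 6.30 at 180 min, and 6.20 and 6.40 at 300 min. Pim3 gave 6.92 and 6.89 at 0 min, 7.0 and 7.07 at 30 min, 7.06 and 6.77 at 180 min, and 6.88 and 6.87 at 300 min. The Pim1 arrays of 30 and 300 min overlapped with those of 0 min and those of 180 min lay above them. The Pim3 arrays lay above at 30 min, overlapped at 180 min and lay just below at 300 min. Of all genes, 19.2% lay above at 30 min, 21.1% lay above at 180 min and 19.6% lay below at 300 min. Their log2 changes against 0 min lay between −0.03 and 0.18, and the 95% intervals reached from −0.31 at the lowest to 0.46 at the highest, so changes within those bounds are not excluded.

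**Figure D3:**
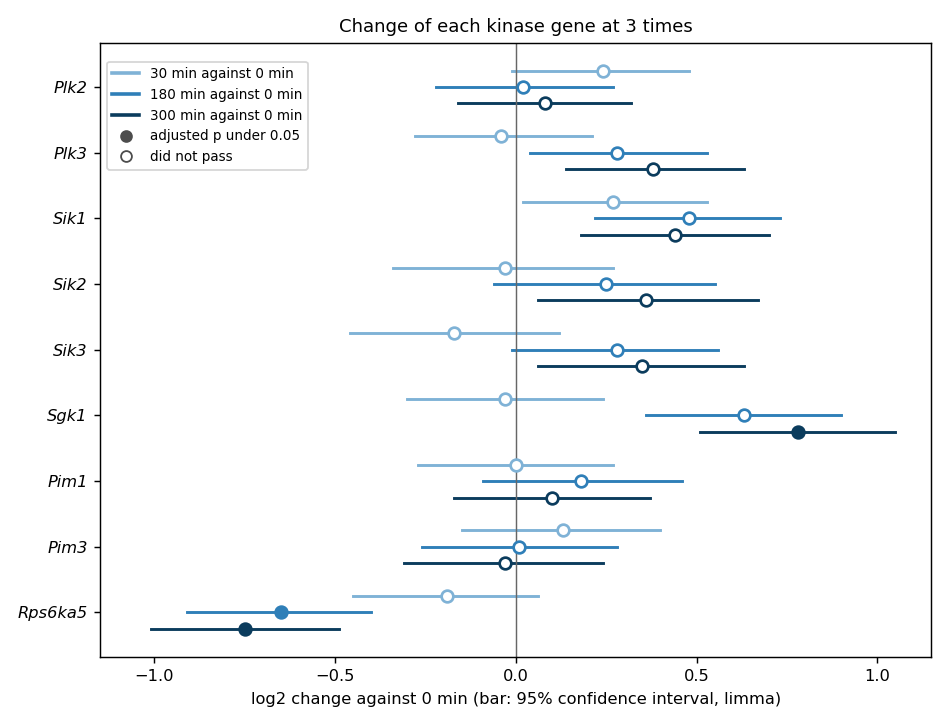
Log2 change against 0 min (horizontal axis) of each kinase gene at 30, 180 and 300 min, with 95% confidence intervals from limma. Filled points, with an adjusted p under 0.05, are Rps6ka5 at 180 and 300 min and Sgk1 at 300 min, and the other points are open.

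Counted by time, 0 of the 9 kinase genes were called at 30 min against 0 min, when 0.0953% of all genes were, and 1 had an unadjusted p under 0.05, beside 5.11%. The limma fit with a trended, robust prior also called 0. At 180 min 1 was called, beside 0.331% of all genes, and at 300 min 2 were, beside 0.286%. An unadjusted p under 0.05 was reached by 4 of the 9 at 180 min and 6 of the 9 at 300 min, beside 12.8% and 8.96% of all genes. For 180 against 30 min 1 was called, beside 0.502%, and for 300 against 180 min 0 were called, as for all genes (0%), and 0 had an unadjusted p under 0.05, beside 5.72%. The median log2 change of the 9 genes was −0.03 at 30 min, 0.25 at 180 min and 0.35 at 300 min, while that of all genes lay within 0.01 of 0 at each time.

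Arrays that did not overlap with those of 0 min were counted without a model. At 30 min 3 kinase genes had both arrays above both 0 min arrays and 3 had both below, beside 19.2% and 18.3% of all genes. At 180 min 7 lay above and 1 below, beside 21.1% and 22.6%. At 300 min 6 lay above and 2 below, beside 18.8% and 19.6%. Plk2 counts among the higher genes at both late times with changes of 0.02 and 0.08, so such a count says nothing of size.

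Relatives of these kinases were read from a list of 12 other family members, of which 9 were measured. At each of the 3 times 0 of the 9 passed, by limma with the default or the trended, robust prior. With the default prior 0.0953%, 0.331% and 0.286% of all genes passed. The median log2 change of the 9 was 0.04, 0.10 and 0.10. An unadjusted p under 0.05 was reached by 0, 2 and 1 of the 9, beside 5.11%, 12.8% and 8.96% of all genes. The p70 ribosomal S6 kinase gene Rps6kb2 had the smallest p at both late times, with 6.67 at 300 min and 6.15 at 0 min (log2 change 0.52 ± 0.12 SE, adjusted p = 0.103). Beside the change of Sgk1, Sgk2 had 0.17 and Sgk3 had 0.13 at 300 min, and Pim2 had 0.17. The RSK gene Rps6ka3 had −0.34 ± 0.15 SE at 180 min (adjusted p = 0.38) and 0.09 at 300 min.

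Of 30 upstream kinases and partners, 26 were measured, and 0 passed at any of the 3 times by either prior. With the default prior 0.0953%, 0.331% and 0.286% of all genes passed. An unadjusted p under 0.05 was reached by 0, 5 (2 higher, 3 lower) and 2 (both higher) of the 26. The unadjusted shares of all genes were 5.11%, 12.8% and 8.96%. Stk11, the kinase that activates the Sik family, had 0.10 at 300 min as its change farthest from 0, and Pdpk1, which activates Sgk1, had −0.13 at 180 min. Among the genes of p38 signalling above MSK1, Map2k6 had −0.42 ± 0.15 SE (adjusted p = 0.252) and Map2k3 had −0.32 ± 0.12 SE (adjusted p = 0.299) at 180 min, and at 300 min they had −0.20 and 0.08. The p38 genes Mapk11, Mapk12, Mapk13 and Mapk14 had −0.08, 0.18, 0.17 and −0.21 at 180 min, with no shared direction. Jak2 and Stat3, which are known to drive Pim1 expression in blood cells, had −0.22 and −0.06 at 30 min (limma adjusted p = 0.965 and 0.99). They had 0.29 and 0.27 at 180 min and 0.27 and 0.25 at 300 min (adjusted p 0.34 to 0.541). The median of the list was 0.01, −0.08 and −0.05 at 30, 180 and 300 min.

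Of 34 substrates and partners, 30 were measured, and 0 passed at any time by either prior. With the default prior 0.0953%, 0.331% and 0.286% of all genes passed. At an unadjusted p under 0.05 were 3 (2 higher, 1 lower), 8 (3 higher, 5 lower) and 8 (4 higher, 4 lower) of the 30. The unadjusted shares of all genes were 5.11%, 12.8% and 8.96%. The median log2 change of the 30 was 0.00, 0.01 and −0.03. The FOXO factor gene Foxo1 had −0.48 ± 0.16 SE at 180 min (adjusted p = 0.236). Ndrg1, a substrate by which Sgk1 activity is often read, had −0.28 at 180 min and −0.31 at 300 min (adjusted p = 0.345 and 0.435). Crtc2, a CREB coactivator held by Sik kinases, had 0.38 ± 0.14 SE at 300 min (adjusted p = 0.376), and Cebpb, a basic leucine zipper factor gene, had 0.47 ± 0.12 SE at 180 min (adjusted p = 0.122). Sipa1l1, the SPAR gene and Plk2 substrate, had −0.24 at 180 min and −0.08 at 300 min. The arrays measure RNA and carry no information on phosphorylation of these proteins.

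**Figure D4:**
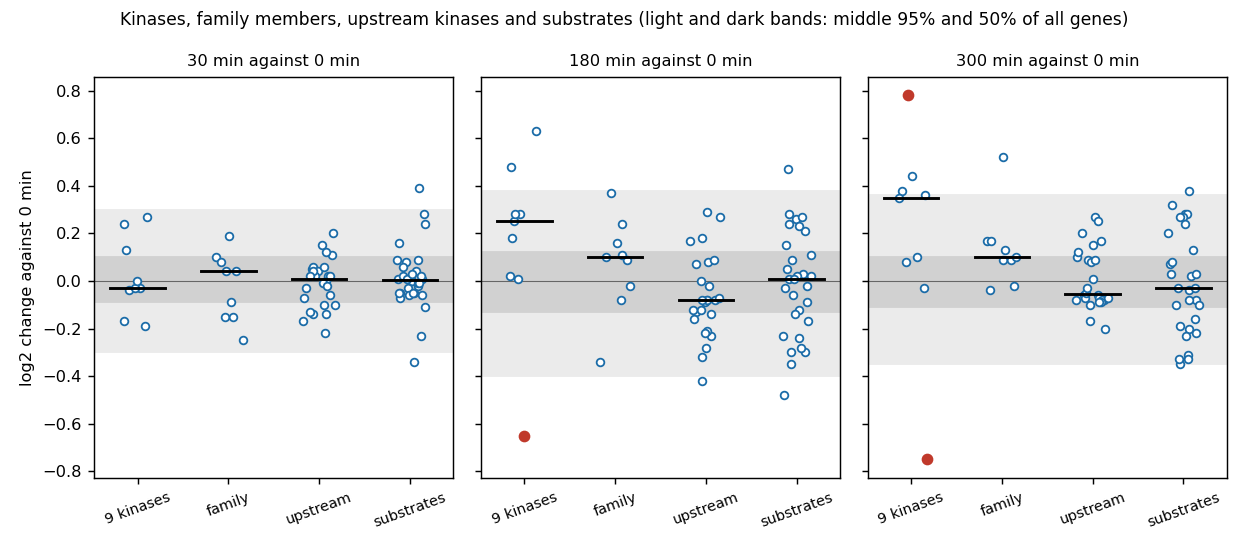
Log2 change against 0 min (vertical axis) at 30, 180 and 300 min of the 9 kinases, 9 other family members, 26 upstream genes and 30 substrates, with black bars at the medians and bands for the middle 95% and 50% of all genes. Filled points passed limma's test (Rps6ka5 at 180 min, Rps6ka5 and Sgk1 at 300 min), and no gene of the other 3 lists did.

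The genes most like Sgk1 and Rps6ka5 over the 8 arrays were sought among 157 other named genes that passed the F test, with Pearson's r as a description. Because all candidates differed between times, high values are common, and points of one time share culture and handling. For Sgk1 they were Adcyap1 (r = 0.982), the gene of the neuropeptide PACAP, Lipg (0.982), that of endothelial lipase, and Ptx3 (0.981), that of a long pentraxin. Their log2 changes at 300 min were 0.61, 2.20 and 0.47 (limma adjusted p = 0.0604, 1.1e-06 and 0.16). Lipg thus shared the time course but not the size. For Rps6ka5 they were Fam13b (0.969), Nuak1 (0.962), which encodes an AMPK-related kinase that LKB1 also activates, and Tgfbr1 (0.957), a TGF-beta receptor gene. Their log2 changes at 300 min were −0.57, −0.61 and −0.77 (limma adjusted p = 0.0661, 0.042 and 0.0285).

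**Figure D5:**
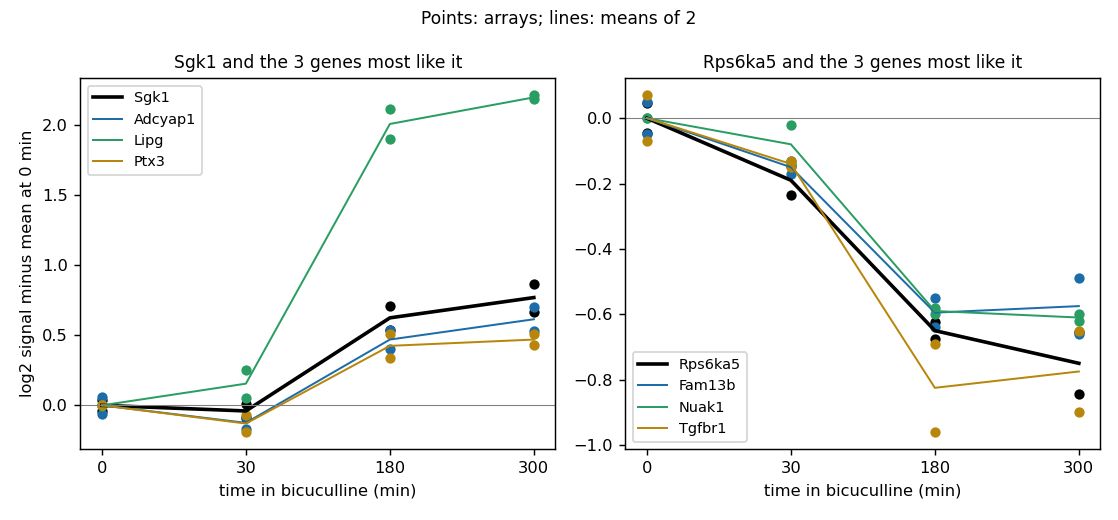
Log2 signal minus the mean at 0 min (vertical axis) against time for Sgk1 (left) and Rps6ka5 (right), each with the 3 genes whose signal correlated best with it over 8 arrays. Points are arrays and lines are means of 2, and the changes at 300 min range from 0.47 to 2.20 on the left and from −0.77 to −0.57 on the right.

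Sgk1 is also known to be expressed by glia, and the arrays hold RNA of the whole dish, where fewer cells of a type and less RNA per cell cannot be told apart. Of 9 astrocyte markers, 8 lay above the olfactory percentile. Their mean log2 level per array was 6.07 to 6.31 at 0 min, 6.03 to 6.20 at 180 min and 5.94 to 6.15 at 300 min. The 9 measured oligodendrocyte lineage markers gave 4.94 to 4.98 at 300 min and 5.04 to 5.05 at 0 min, and the 9 microglia markers gave 4.99 to 5.09 at 300 min and 5.05 to 5.18 at 0 min. The 12 neuron markers gave 9.06 to 9.11 at 300 min and 9.02 at 0 min. Endothelial and mural, progenitor and fibroblast markers gave 4.94 to 5.0, 4.90 to 4.97 and 5.80 to 5.93 at 300 min, against 4.94 to 5.06, 4.96 and 5.82 at 0 min. Single markers differed in both directions at 300 min, from Acta2 with a log2 change of −0.51 (8.20 at 300 min and 8.71 at 0 min) to Slc17a6 of glutamatergic neurons with 0.40 (8.18 at 300 min and 7.79 at 0 min). By limma, 0 of the markers passed at any time, beside 0.0953%, 0.331% and 0.286% of all genes at 30, 180 and 300 min. At an unadjusted p under 0.05, 3 of 9 astrocyte markers were lower at 180 min and 1 at 300 min, with 0 higher. Of 12 neuron markers, 1 was higher and 1 lower at 180 min, and 2 were higher and 0 lower at 300 min. The share of all genes, in either direction, was 12.8% at 180 min and 8.96% at 300 min. Median log2 changes at 300 min were −0.16 for astrocyte and 0.09 for neuron markers. The part of cell composition in the kinase results was not tested.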

How the data were processed

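The 8 arrays were Affymetrix Mouse Gene ST 1.0 arrays hybridised with biotin-labelled total RNA, per the labels' protocols. The authors deposited log2 signals, 1 for each array at every transcript cluster, with the base taken from their range (1.22 to 14.96). The sources used here do not give the background correction, probe summary, normalization or genome build, and residual background would shrink the changes of dim genes. No further normalization was applied. Of 35399 rows, 21789 had 1 gene symbol, 1621 several and 11989 none. Of the rows with 1 symbol, 21698 matched RefSeq (GRCm38.p6) by gene number, with 0 symbols changed. The cluster with the highest mean stood for each of 19938 genes.

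A mean per time was fitted to all 8 arrays with limma 3.58.1 in R 4.3.3 (lmFit, eBayes; 4 residual and 10.1 prior degrees of freedom). P-values are two-sided and were adjusted over all genes by the Benjamini-Hochberg method. Intervals are 95% per gene, not adjusted. The fit was tested on simulated data. The labels call the replicates biological without naming separate dissections, so the spread behind the p-values may be technical, and the number of arrays limits the precision. The kinases, lists and motifs were chosen with earlier results of these data known. Genes named beside the kinases were up to 4 with the smallest p per list and time, the 3 most correlated with a kinase that passed the F test, and a few list members, such as Stk11, Pdpk1, Sgk2, Sgk3, Pim2, Sipa1l1 and the p38 genes, chosen for their role. Alternatives were quantile normalization, median centring, a filter on dim genes, every row, the mean of clusters, a trended and robust prior, a replicate block, the 4 arrays compared, and each array left out. The main fit did not pair arrays by replicate number. Correlations of deviations between times were −0.0941 to 0.0922, which cannot tell whether equal numbers share a dissection. Promoters were given for 9 of the 10 genes (15 windows), and that of Sik1 is not shown.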

Additional observations from a re-analysis of the deposited data

Results flagged for a closer look

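Sgk1 differed between 180 and 30 min. Its signal was 7.21 and 7.38 at 180 min, against 6.58 and 6.68 at 30 min, a log2 difference of 0.66 in the direct test of the 2 times (limma adjusted p = 0.0334, both 180 min arrays above both 30 min arrays). The call was lost without any one of those 4 arrays (adjusted p 0.0677 to 0.383), in a fit to only those 4 arrays (0.0656) and with every row of the table (0.252). The cause was not tested.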

How the results depend on the processing

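Median centring and the mean of all clusters changed no call of the kinase genes. At 180 against 0 min the count of kinase genes called (1) was 2 with only genes above the olfactory percentile and with the trended, robust prior, where Sgk1 joined, and 0 with every row, with the replicate block and with only the 4 arrays compared. All genes called there (66) numbered 102 above the olfactory percentile, 108 with the trended prior, 19 with 4 arrays and 1 with every row. At 300 against 0 min, 99 genes were called above the olfactory percentile, 91 with the trended prior and 5 with every row (57 in the main analysis). With every row, 0 kinase genes were called at 300 min or by the F test, and Sgk1 and Rps6ka5 had adjusted p of 0.307 and 0.279 at 300 min. For 180 against 30 min, 0 kinase genes were called with every row or 4 arrays, and all genes called (100) numbered 9 with every row, 55 with 4 arrays and 156 with the trended prior. Quantile normalization kept the kinase counts but put Sgk1 (0.70, adjusted p = 0.0328) in place of Rps6ka5 at 180 min. It also moved the split of calls over all genes from 42 higher and 24 lower to 48 and 13 at 180 min, and from 45 and 12 to 48 and 6 at 300 min, and turned Plk2 at 300 against 180 min to −0.01. With the replicate number as a block, Rps6ka5 at 180 min had an adjusted p of 0.0516, and no other call of a kinase gene changed.

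Leaving out 1 array gave 0 kinase genes at 180 min in all 8 fits, 0 to 2 at 300 min, 0 to 1 for 180 against 30 min and 1 to 2 in the F test. All genes called ranged from 12 to 21 at 30 min, 15 to 68 at 180 min, 17 to 61 at 300 min, 17 to 93 for 180 against 30 min and 0 to 14 for 300 against 180 min. Small changes that did not pass turned their sign: at 30 min Sgk1 (−0.08 to 0.02), Sik2 (−0.12 to 0.05) and Pim1 (−0.09 to 0.09), at 180 min Pim3 (−0.14 to 0.16), at 300 min Sgk2 (−0.04 to 0.39), for 180 against 30 min Pim3 (−0.27 to 0.03), and for 300 against 180 min Sik1 (−0.12 to 0.05), Sik2 (−0.06 to 0.30), Sik3 (−0.07 to 0.21), Pim1 (−0.18 to 0.01) and Pim3 (−0.19 to 0.11). Each such fit has fewer degrees of freedom than the main one. The causes of the other shifts were not tested.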
